A study of Homo sapiens with 4 samples.

Results

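The genes described here are 32 genes of cholesterol and fatty acid synthesis, taken by symbol from a list that names the SREBP transcription factors, the proteins that control them and the enzymes of both pathways. The count tables held 56655 symbols, and all 32 genes were among the 16417 that passed the filter on low counts. Transcript levels were measured by RNA sequencing in OVCAR5, an established human ovarian cancer cell line labelled as high-grade serous and as derived from ascites. The shCtrl group (n = 2 libraries) carried a nontargeting short hairpin RNA in the lentiviral vector pLKO.1-puro, and the shFOXK2 group (n = 2 libraries) carried a hairpin against FOXK2, a forkhead transcription factor. Both groups were stable lines that had been selected with puromycin and grown in RPMI medium with fetal bovine serum, which itself supplies cholesterol and fatty acids. The comparison therefore asks how these genes differed between 1 cell line with a FOXK2 hairpin and the same line with a control hairpin. The study's design text calls the libraries of a group biological duplicates without saying whether they came from separate transductions or cultures. The p-values therefore cover only the spread between these libraries, with variance shared between genes.

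Cells make cholesterol from acetyl-CoA by way of mevalonate, squalene and lanosterol, and they make fatty acids from the same acetyl-CoA by way of malonyl-CoA. SREBF1 and SREBF2 encode the membrane-bound precursors of the SREBP transcription factors. SCAP carries these precursors from the endoplasmic reticulum to the Golgi, where they are cut and their active part is released, and INSIG1 and INSIG2 hold SCAP back when sterols are plentiful. SREBP2 is best known for activating the sterol genes and SREBP1 for activating the fatty acid genes, with much overlap, and promoters of this kind commonly carry a sterol regulatory element (SRE) beside a CCAAT box that binds NF-Y. Many tumor cells rely on this synthesis for membranes and lipid signalling.

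Stretches of 6 promoters are shown here because the genes cover the range of the comparison, from INSIG1, SCD and SREBF2 at its low end to PMVK at its high end, with LSS and MSMO1 from the sterol pathway. They come from RefSeq (GRCh38.p14), read 5′ to 3′ in the direction of the gene, and end before the first annotated exon of the gene. Capitals mark a CCAAT box on either strand (CCAAT or ATTGG) and, in SREBF2, the SRE.
SREBF2, chr22:41832855-41833104, plus strand: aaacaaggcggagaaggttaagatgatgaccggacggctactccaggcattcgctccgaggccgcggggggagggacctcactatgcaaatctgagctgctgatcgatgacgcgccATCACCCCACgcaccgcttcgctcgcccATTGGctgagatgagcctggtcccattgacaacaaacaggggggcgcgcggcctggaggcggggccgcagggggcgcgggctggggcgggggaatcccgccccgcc
INSIG1, chr7:155297628-155297775, plus strand: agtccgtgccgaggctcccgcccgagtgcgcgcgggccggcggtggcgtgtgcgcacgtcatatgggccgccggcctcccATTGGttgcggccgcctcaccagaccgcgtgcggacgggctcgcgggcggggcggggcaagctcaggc
LSS, chr21:46228825-46229024, minus strand: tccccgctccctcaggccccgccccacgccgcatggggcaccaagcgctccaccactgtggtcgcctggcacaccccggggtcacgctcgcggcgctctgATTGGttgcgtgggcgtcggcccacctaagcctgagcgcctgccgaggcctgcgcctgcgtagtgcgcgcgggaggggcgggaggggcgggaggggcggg
MSMO1, chr4:165327419-165327666, plus strand: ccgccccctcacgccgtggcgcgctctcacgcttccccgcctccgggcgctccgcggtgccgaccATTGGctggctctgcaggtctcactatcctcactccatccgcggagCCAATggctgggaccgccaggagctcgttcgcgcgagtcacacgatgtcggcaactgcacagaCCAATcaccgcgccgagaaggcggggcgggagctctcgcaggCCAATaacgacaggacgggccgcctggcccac
SCD, chr10:100346983-100347232, plus strand: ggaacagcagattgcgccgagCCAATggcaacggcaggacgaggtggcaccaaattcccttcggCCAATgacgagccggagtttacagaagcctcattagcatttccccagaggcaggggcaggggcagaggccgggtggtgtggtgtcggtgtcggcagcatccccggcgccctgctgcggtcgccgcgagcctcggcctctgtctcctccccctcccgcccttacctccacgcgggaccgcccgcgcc
PMVK, chr1:154936720-154936969, minus strand: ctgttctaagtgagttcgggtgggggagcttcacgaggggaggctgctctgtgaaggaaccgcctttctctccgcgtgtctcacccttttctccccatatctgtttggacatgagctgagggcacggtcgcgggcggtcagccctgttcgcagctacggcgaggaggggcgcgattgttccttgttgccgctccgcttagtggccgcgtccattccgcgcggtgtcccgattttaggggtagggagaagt

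Of the 32 genes, 28 had an entry in the promoter table, which covers 250 bases before the RefSeq start of each gene, and ACAT2, FDFT1, SQLE and FASN had none. Gene coordinates given below follow GENCODE, whose starts differ for some genes. Several windows lie inside the gene as annotated there, those of DHCR7, ACLY, SCAP, MVK, CYP51A1, ACSS2, ELOVL6 and FADS1 among them. The 10-letter SRE ATCACCCCAC, searched on both strands, was found in the SREBF2 window alone among the genes described, 134 to 125 bases before the start, and in 10 of 27305 promoters in all (0.0366%). Its 9-letter core TCACNCCAC, which lies inside the longer element, was also found in SREBF2 alone, against 0.875% of all promoters. This SREBF2 window overlaps an exon of the antisense gene SREBF2-AS1. A CCAAT box stood in 18 of 28 windows (64.3%), against 33% of all promoters and 34.7% of promoters of tested genes. The MSMO1 window held 4 such boxes, and the windows of MVK and NSDHL held more. The GC box GGGCGG stood in 26 of 28 windows (92.9%), against 42.3% of all promoters and 66.4% of those of tested genes. The E-box CACGTG was found in SCAP, INSIG1 and SC5D, and the forkhead-type motif TGTTTAC in ELOVL6 alone, against 6.49% and 2.98% of all promoters. The E-boxes of INSIG1 and SCAP and the forkhead-type match of ELOVL6 lie past the GENCODE starts of those genes. The INSIG1 E-box is also outside the stretch printed above. These matches describe letters in a window and not binding.

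Library totals ran from 14284005 to 21950873 counts, so that 3 counts corresponded to 0.134 to 0.211 CPM (counts scaled to a common library total). FOXK2, the targeted gene, was at 80.5 and 93.4 CPM in the shCtrl libraries and 76.3 and 59.6 CPM in the shFOXK2 libraries. Both shFOXK2 values lay below both shCtrl values, an order found in 36.2% of all tested genes. The difference of −0.36 on the log2 scale (SE 0.25) did not pass the test (edgeR quasi-likelihood, adjusted p = 0.257). With offsets for the base composition of transcripts it was −0.02 for A content (adjusted p = 0.931) and −0.06 for GC content (adjusted p = 0.804). The target transcript was thus not called lower in the deposited counts, which does not show it unchanged. By quantitative PCR and western blot, the paper reports lower FOXK2 mRNA and protein in OVCAR5 cells that carry its FOXK2 hairpins. Among cell type markers, the 5 epithelial genes EPCAM, CDH1, KRT8, KRT18 and KRT19 summed to 3593 and 4785 CPM in shCtrl and 3436 and 4645 CPM in shFOXK2, although CDH1 alone went from 459 and 260 counts to 13 and 24. Of the serous ovarian markers, WT1 was nearly absent at 0 to 2 counts a library. MUC16 went from 397 and 145 counts to 0 and 8, PAX8 fell by 0.88 on the log2 scale (adjusted p = 0.0263) and MSLN rose by 1.10 (adjusted p = 0.0151), and the list of 4 summed to 37 and 33.2 CPM in shCtrl and 18.8 and 15.8 CPM in shFOXK2. The 4 adipocyte markers summed to 1.1 CPM or less and the 4 hepatocyte markers to 0.494 CPM or less in every library, and none of these 8 genes passed the filter. Fibroblast markers summed to 13.1 to 16.3 CPM, nearly all from COL1A1, and leukocyte markers to 17.4 and 22.3 CPM in shCtrl and 9.14 and 9.28 CPM in shFOXK2, nearly all from CD14, with PTPRC at 0 to 3 counts. The part of these marker differences in the results was not tested.

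Genes of both pathways were lower in shFOXK2 than in shCtrl. Of the 32 genes, 22 fell (68.8%) and 10 did not pass the test, while the same test called 22.7% of all 16417 tested genes lower. None rose, whereas 25.7% of all tested genes did, and none was higher at an unadjusted p under 0.05 by edgeR or past the threshold by DESeq2. The median log2 fold change was −0.99, a level 50.2% of control, beside 0.04 for all tested genes. The lower shCtrl value exceeded the higher shFOXK2 value for 28 of the 32 genes and for 36.2% of all tested genes. PMVK was the one gene with both shFOXK2 libraries above both controls, an order found in 39.2% of all tested genes, and INSIG2, EBP and ELOVL6 overlapped between groups. A fall of at least 2 on the log2 scale that passed the test was seen for 9 genes, SREBF1, SREBF2, INSIG1, LSS, CYP51A1, TM7SF2, DHCR7, ACSS2 and SCD, against 5.27% of all tested genes. Tested against a minimum log2 change of 1 (glmTreat), 9 genes were called lower, beside 8.1% of all tested genes. In RNA from bulk cells, fewer cells of a type and less RNA per cell cannot be told apart.

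**Figure D1:**
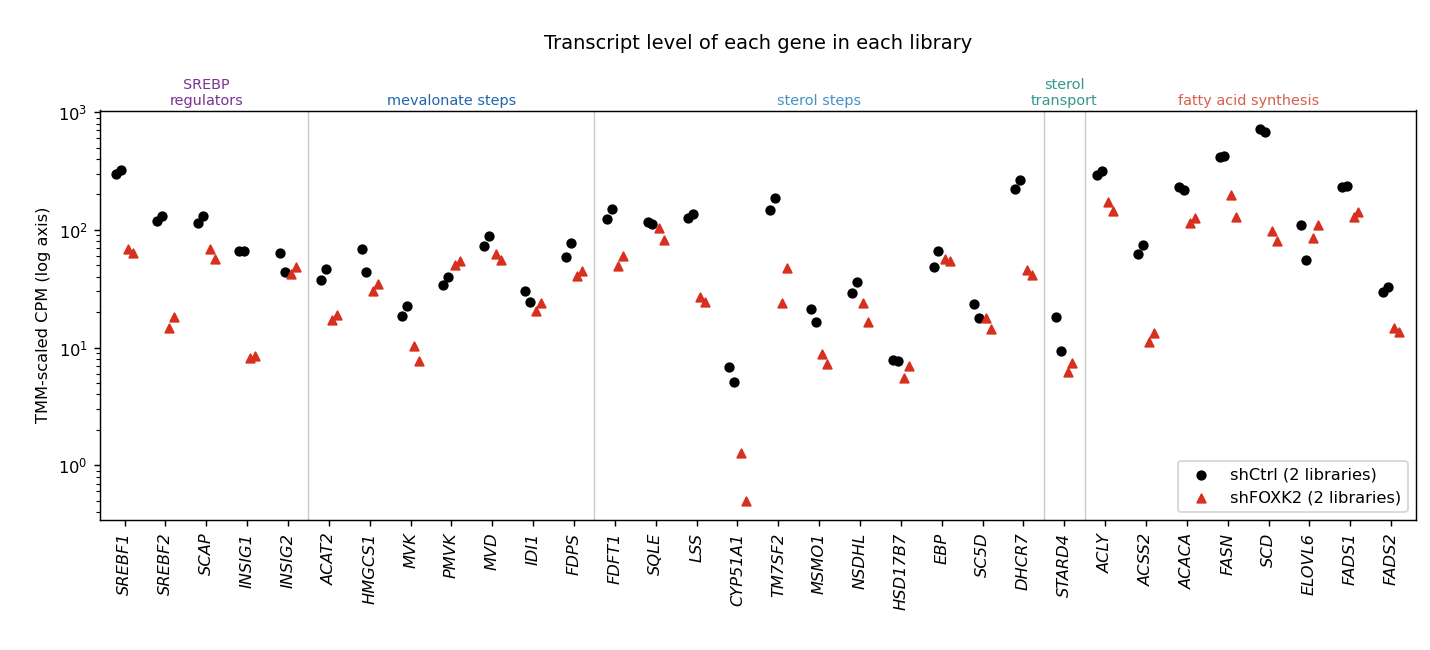
Level of each of the 32 genes in each library, in TMM-scaled CPM on a log axis, with genes ordered by role. Black circles are the 2 shCtrl libraries and red triangles the 2 shFOXK2 libraries; the triangles lie below both circles for 28 genes, and SCD is the highest gene in shCtrl at 718 and 681 CPM.

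The factors and their control proteins fell together with the enzymes, with 4 of 5 lower and a median log2 fold change of −2.23. SREBF2 (ENSG00000198911, chr22:41833105-41907306), which encodes the SREBP2 precursor, was at 119 and 131 CPM in shCtrl and 14.6 and 18.3 CPM in shFOXK2. Its log2 fold change was −2.92 (SE 0.27, adjusted p = 4.39e-06), and the 4 differences between a shFOXK2 and a shCtrl library ran from −3.15 to −2.70. SREBF1 (chr17:17810399-17837002), which encodes the SREBP1 precursor, stood at 299.6 and 322 CPM against 68.6 and 64.1 CPM (log2 fold change −2.23, SE 0.24, adjusted p = 1.33e-05). The libraries of each group lay close together for both factors, and the groups were far apart. Counts do not separate the transcript forms of SREBF1, so the SREBP1a and SREBP1c forms cannot be told apart.

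INSIG1 (chr7:155297776-155310235) was, with SCD, SREBF2 and CYP51A1, among the genes with the largest falls, whose values lay within their SE of each other. INSIG1 was at 65.9 and 65.6 CPM in shCtrl and 8.15 and 8.52 CPM in shFOXK2 (log2 fold change −2.98, SE 0.27, adjusted p = 4.36e-06). Its paralog INSIG2, which has the same retention function, was at 63.1 and 43.6 CPM in shCtrl and 42 and 48.6 CPM in shFOXK2. The INSIG2 groups overlapped, and its difference of −0.24 on the log2 scale (SE 0.27, adjusted p = 0.489) became 0.02 without shCtrl replicate 1. With offsets for base composition INSIG2 was called lower, at −0.63 for A content (adjusted p = 0.0152) and −1.13 for GC content (adjusted p = 0.00121). The 2 INSIG genes thus stood at a similar level per length in shCtrl, 22.6 and 15 CPM per kilobase, and at 2.87 and 12.7 CPM per kilobase in shFOXK2. SCAP, the escort of the precursors, was at 114 and 132 CPM in shCtrl and 68.7 and 56.5 CPM in shFOXK2, a smaller fall of 0.97 on the log2 scale (SE 0.24, adjusted p = 0.00509).

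Of the 7 genes that lead from acetyl-CoA to farnesyl diphosphate, 4 fell, with a median log2 fold change of −0.67. ACAT2, the cytosolic thiolase that joins acetyl-CoA units, was at 37.2 and 46.6 CPM in shCtrl and 17.2 and 18.8 CPM in shFOXK2 (log2 fold change −1.22, SE 0.27, adjusted p = 0.00216). MVK, which phosphorylates mevalonate, was at 18.7 and 22.4 CPM against 10.3 and 7.69 CPM (log2 fold change −1.19, SE 0.30, adjusted p = 0.00501). Those were the pair of mevalonate genes whose calls stayed under every alternative except the test against a minimum change. Part of the ACAT2 exons (36.3%) overlaps genes on the other strand, TCP1 among them, and the strand setting of the counting was not given in the sources used here.

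HMGCS1 and FDPS passed the threshold narrowly. HMGCS1, the synthase that feeds the pathway, was at 69.3 and 43.9 CPM in shCtrl and 30.5 and 34.9 CPM in shFOXK2 (log2 fold change −0.79, SE 0.28, adjusted p = 0.0318). The shCtrl libraries of HMGCS1 were farther apart than the lower of them was from the shFOXK2 libraries, and the adjusted p was 0.213 without shCtrl replicate 1 and 0.109 without shFOXK2 replicate 1. FDPS, which makes farnesyl diphosphate, was at 58.4 and 77.4 CPM against 40.3 and 45 CPM (log2 fold change −0.67, SE 0.26, adjusted p = 0.0447). Its adjusted p was 0.146 without shCtrl replicate 2, 0.166 without shFOXK2 replicate 1 and 0.0893 without shFOXK2 replicate 2. Exons shared with other annotated genes made up 46.7% of HMGCS1 and 41.4% of FDPS, the latter with the antisense gene RUSC1-AS1, so these counts are uncertain where the strand was not used.

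The other 3 mevalonate genes did not pass the test. PMVK, the second kinase of the pathway, was at 33.8 and 40.1 CPM in shCtrl and 50.3 and 54.9 CPM in shFOXK2, the opposite order to its neighbours (log2 fold change 0.51, SE 0.25, adjusted p = 0.108). MVD, the decarboxylase that follows it, was at 73.2 and 89.3 CPM against 62.4 and 55.1 CPM (log2 fold change −0.47, adjusted p = 0.135). IDI1, the isomerase of the resulting isoprene unit, was at 30.2 and 24.4 CPM against 20.5 and 23.7 CPM (log2 fold change −0.30, adjusted p = 0.376). MVD and IDI1 were lower in both shFOXK2 libraries, by amounts near the spread within a group.

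In the steps from farnesyl diphosphate to cholesterol, 6 of 11 genes fell, with a median log2 fold change of −1.23. FDFT1, the squalene synthase that commits carbon to sterols, was at 123 and 150.1 CPM in shCtrl and 49.1 and 59.7 CPM in shFOXK2 (log2 fold change −1.33, SE 0.25, adjusted p = 0.000757). SQLE, the squalene epoxidase of the next step, was at 117 and 113 CPM against 103 and 82.3 CPM and did not pass the test (log2 fold change −0.31, SE 0.24, adjusted p = 0.299). LSS (chr21:46188141-46228824), which folds squalene epoxide into lanosterol, was at 125 and 137 CPM against 27 and 24.6 CPM, a fall of 2.35 on the log2 scale (SE 0.25, adjusted p = 1.46e-05). FDFT1, SQLE and LSS follow each other in the pathway, and SQLE was the one of them for which the groups lay close together.

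Of the genes that turn lanosterol into cholesterol, DHCR7, the reductase of the last step of one route (chr11:71428193-71452868), fell from 224 and 265 CPM to 45.3 and 41.1 CPM (log2 fold change −2.50, SE 0.25, adjusted p = 7.49e-06). TM7SF2, a sterol reductase that acts after lanosterol demethylation (chr11:65111845-65116384), was at 148 and 185 CPM in shCtrl and 24 and 47.4 CPM in shFOXK2. Its shFOXK2 libraries were unequal, yet both lay far below shCtrl (log2 fold change −2.22, SE 0.32, adjusted p = 0.00011). LBR, the nuclear envelope protein that carries the same reductase activity, was at 213 and 155 CPM in shCtrl and 219 and 252 CPM in shFOXK2. Its log2 fold change was 0.35 and did not pass the test (adjusted p = 0.248). With an offset it was 0.44 for A content (adjusted p = 0.0683) and −0.35 for GC content (adjusted p = 0.111). MSMO1, the oxidase that starts the removal of methyl groups that follows lanosterol demethylation, was at 21.2 and 16.4 CPM against 8.79 and 7.25 CPM (log2 fold change −1.23, SE 0.30, adjusted p = 0.00429).

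CYP51A1, the lanosterol demethylase, had few counts, with 153 and 82 in the shCtrl libraries against 18 and 9 in the shFOXK2 libraries. Its log2 fold change was −2.80 (SE 0.46, adjusted p = 0.000294), the widest error among the 32 genes. Other annotated genes on the same strand share 90.1% of its exon bases, so reads of CYP51A1 may have been dropped as ambiguous and its level is uncertain. NSDHL, which removes the methyl carbons, was at 29.3 and 35.9 CPM in shCtrl and 23.9 and 16.6 CPM in shFOXK2 and narrowly missed the threshold (log2 fold change −0.69, SE 0.28, adjusted p = 0.059). Its adjusted p was 0.0213 without shCtrl replicate 1 and 0.0279 without shFOXK2 replicate 1. The reductase HSD17B7, the isomerase EBP and the desaturase SC5D had log2 fold changes of −0.31, −0.05 and −0.36 and did not pass the test. EBP was at 48.6 and 66.2 CPM against 57.1 and 53.9 CPM, groups that overlapped, with 57.1% of its exon bases shared with another annotated gene, and its value was 0.12 without shCtrl replicate 2. STARD4, which moves cholesterol between membranes, was at 18.2 and 9.41 CPM in shCtrl and 6.26 and 7.47 CPM in shFOXK2 (log2 fold change −1.01, SE 0.35, adjusted p = 0.0304). The STARD4 call rested on single libraries, with an adjusted p of 0.324 without shCtrl replicate 1 and 0.0504 without shFOXK2 replicate 1.

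Of the 8 fatty acid genes, 7 fell, with a median log2 fold change of −1.05. SCD (chr10:100347233-100364826), the desaturase that makes monounsaturated fatty acids, was at 718 and 681 CPM in shCtrl and 97.7 and 80.8 CPM in shFOXK2. Its log2 fold change was −2.97 (SE 0.25), with the smallest adjusted p of the 32 genes, 2.36e-06. Per length it went from the highest level of the 32 genes, 133 CPM per kilobase in shCtrl, to 17 CPM per kilobase in shFOXK2. ACSS2, which makes acetyl-CoA from acetate (chr20:34872146-34927962), was at 61.9 and 74 CPM against 11.1 and 13.2 CPM (log2 fold change −2.48, SE 0.27, adjusted p = 1.75e-05). ACLY, which makes acetyl-CoA from citrate, was at 294 and 319 CPM against 172 and 144 CPM (log2 fold change −0.95, SE 0.23, adjusted p = 0.00409). The difference between these 2 sources of acetyl-CoA was not tested.

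ACACA, the carboxylase that makes malonyl-CoA, was at 230.0 and 217 CPM in shCtrl and 114 and 127 CPM in shFOXK2 (log2 fold change −0.89, SE 0.23, adjusted p = 0.00583). FASN, the synthase that builds palmitate, was at 416 and 428 CPM against 197 and 129 CPM (log2 fold change −1.37, SE 0.26, adjusted p = 0.000723). Both were lower in each shFOXK2 library, and the shFOXK2 libraries of FASN were unequal. FADS1 and FADS2, neighbouring desaturases of polyunsaturated fatty acids, fell by 0.79 (SE 0.23, adjusted p = 0.0111) and 1.14 (SE 0.27, adjusted p = 0.00338) on the log2 scale. FADS1 was at 229.7 and 236 CPM in shCtrl and 128 and 141 CPM in shFOXK2, with an adjusted p of 0.0605 without shFOXK2 replicate 1. FADS2 was at 29.9 and 32.9 CPM against 14.8 and 13.7 CPM, with the libraries of each group close together. Exons of the pair overlap on opposite strands over 3.3% of FADS1 and 4.8% of FADS2.

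ELOVL6, which lengthens palmitate to stearate, was the fatty acid gene that did not pass the test. It was at 111 and 55.1 CPM in shCtrl and 86 and 109.5 CPM in shFOXK2, so that the shFOXK2 libraries lay between or beside 2 unequal shCtrl libraries. Its difference of 0.24 on the log2 scale (SE 0.31, adjusted p = 0.552) turned to 0.79 (adjusted p = 0.0315) without shCtrl replicate 1 and to −0.25 (adjusted p = 0.511) without shCtrl replicate 2.

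The sterol branch, taken as the 18 mevalonate and sterol step genes, had 10 lower genes (55.6%) and a median log2 fold change of −0.74, beside 7 of 8 lower genes (87.5%) and −1.05 for the fatty acid branch. The sterol genes summed to 1196 and 1343 CPM in shCtrl and 595 CPM in each shFOXK2 library. The fatty acid genes summed to 2089.8 and 2042 CPM in shCtrl and 821 and 758 CPM in shFOXK2, and without SCD to 1372 and 1362 CPM against 723 and 678 CPM. Mean log2 CPM of the sterol branch went from 5.48 and 5.54 to 4.53 and 4.47, and that of the fatty acid branch from 7.47 and 7.39 to 6.16 and 6.12. The gap between the branch means was −1.98 and −1.85 in shCtrl and −1.63 and −1.65 in shFOXK2. Both branch means were thus lower in each shFOXK2 library, and the gap between them was narrower. The order of the branch medians turned with another correction: the sterol median minus the fatty acid median was 0.31, and it was −0.14 with an offset for the A content of transcripts and −0.35 with an offset for GC content, so no order between the branches can be read from these data.

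**Figure D2:**
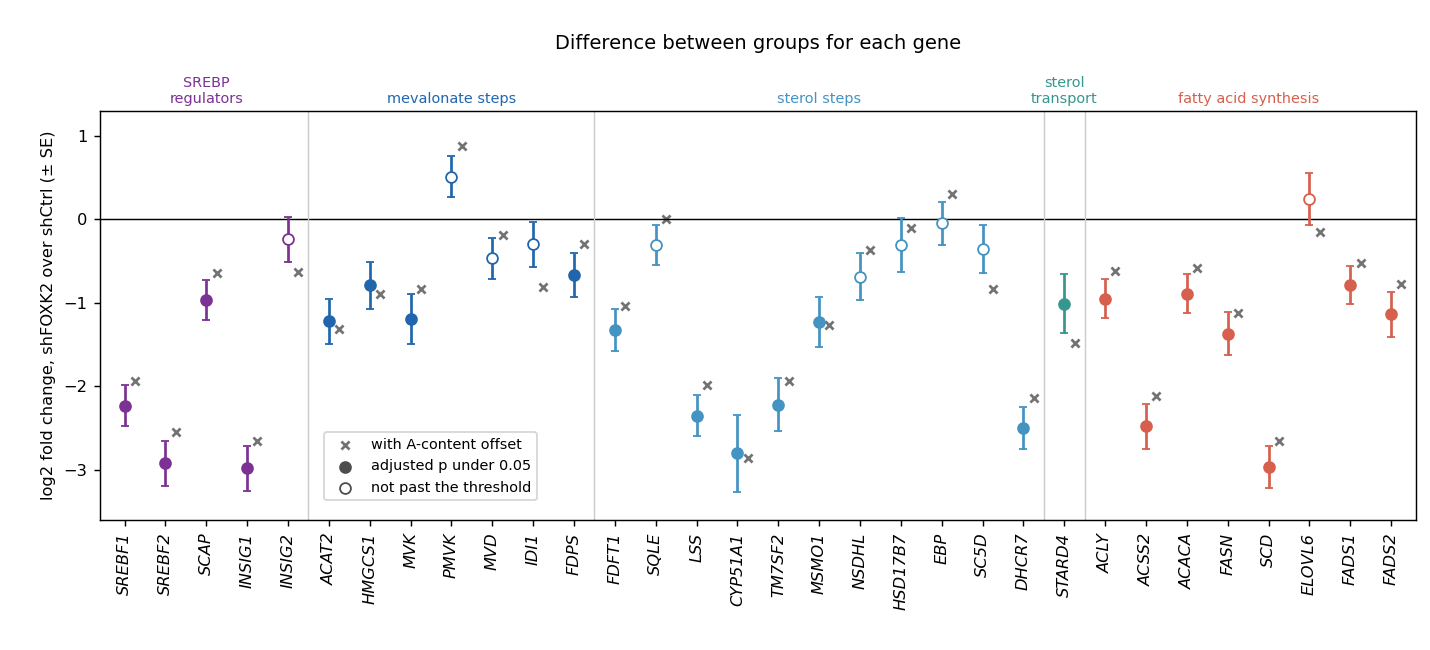
Log2 fold change of shFOXK2 over shCtrl for each gene, with bars of 1 SE from the edgeR fit; filled circles passed an adjusted p of 0.05 and open circles did not, and grey crosses give the value with the A-content offset. INSIG1, SCD and SREBF2 lie lowest, near −3, and PMVK and ELOVL6 are the genes with a value above 0.

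The base composition of transcripts moved with the comparison and is therefore given beside it. Over 12722 protein-coding genes, the log2 fold change correlated with the A content of the transcript (Spearman rho 0.34, across genes, which are not independent replicates), and over the 32 genes rho was 0.36. The 32 transcripts held 16.5% to 30.7% A, with a median of 25.4% beside 25.9% for the protein-coding genes tested. When a smooth offset for A content was fitted, the median gene shifted by 0.15 on the log2 scale, 24 of the 32 genes were lower and 1 higher, beside 22.9% and 28.1% of all tested genes, and the median became −0.84. INSIG2 (log2 fold change −0.63, adjusted p = 0.0152), IDI1 (−0.81, adjusted p = 0.00938) and SC5D (−0.84, adjusted p = 0.0129) then passed as lower, PMVK as higher (0.88, adjusted p = 0.00456), and FDPS no longer passed (−0.30, adjusted p = 0.21). Among the 9 genes with at least 28% A, a bound chosen after their values were seen, 5 were lower without the offset and 8 with it, and shCtrl replicate 1 exceeded replicate 2 in 8 of them, against 5 of the other 23. The 9 genes with a fall of at least 2 kept the sign and the call with the offset, from −1.94 for SREBF1 and TM7SF2 to −2.86 for CYP51A1. Whether composition had a part in the values without the offset was not tested further.

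**Figure D3:**
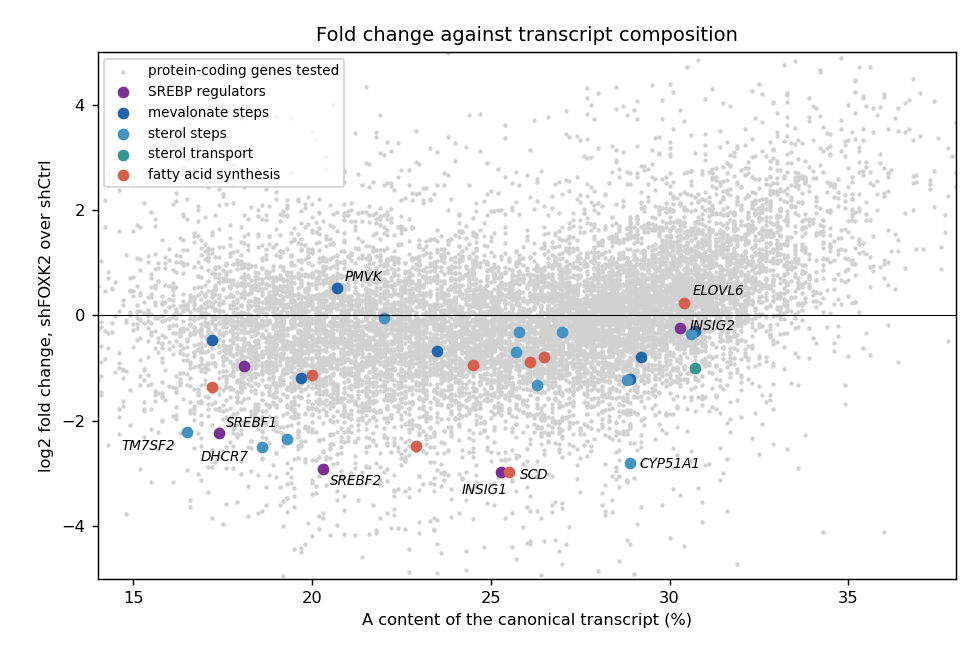
Log2 fold change against the A content of the canonical transcript in percent, for protein-coding genes (grey, with 149 outside the plotted range) and for the 32 genes, colored by role. Genes with more A lay higher on average (rho 0.34), and SREBF2, INSIG1, SCD and CYP51A1 lay near −3 at A contents from 20.3% to 28.9%.

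A further 22 genes of sterol synthesis, sensing and transport were compared in the same fit. Of these, 13 fell and none passed as higher by edgeR or DESeq2, with 1 higher at an unadjusted p under 0.05 (GGPS1, named after its value was seen), and the median log2 fold change was −0.95. Over all tested genes the edgeR test called 22.7% lower and 25.7% higher. With the A-content offset 11 were lower and 2 higher, beside 22.9% and 28.1% of all tested genes, and the median was −0.58. MBTPS1, the protease that makes the first cut in the SREBP precursors, was at 371 and 376 CPM in shCtrl and 92 and 110.3 CPM in shFOXK2 (log2 fold change −1.88, SE 0.24, adjusted p = 4.34e-05). CYB5R3, an electron donor to sterol and fatty acid oxidases, fell by 1.49 (SE 0.24, adjusted p = 0.000257). The list was not one of synthesis alone: its largest fall was in ABCG1, a cholesterol exporter that oxysterol receptors activate, at 30.8 and 28 CPM against 3.16 and 2.03 CPM (log2 fold change −3.51, SE 0.34, adjusted p = 6.48e-06).

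Of 31 further genes of fatty acid and lipid synthesis, 30 passed the filter, 9 fell and 1 was called higher, with a median log2 fold change of −0.37. LPIN1, a phosphatidate phosphatase, was at 64.2 and 58.3 CPM in shCtrl and 18.3 and 23.1 CPM in shFOXK2 (log2 fold change −1.57, SE 0.26, adjusted p = 0.000354). ACSL1, which activates long-chain fatty acids, FADS3, a neighbour of FADS1 and FADS2 in the genome, and SCD5, the other human stearoyl-CoA desaturase, had log2 fold changes of −1.45 (adjusted p = 0.00159), −1.20 (adjusted p = 0.00164) and −1.08 (adjusted p = 0.00546). SCD5 was at 27.1 and 26.4 CPM against 11.7 and 13.6 CPM, so both stearoyl-CoA desaturase genes were lower in shFOXK2. The gene called higher was HACD4, which had 3 and 1 reads in the control libraries and 16 and 21 in the shFOXK2 libraries, too few for a fold to be given. The share of lower genes in this list was 30%, beside 22.7% of all tested genes, of which 25.7% were called higher. With the GC-content offset 14 genes were lower, beside 23.9% of all tested genes.

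**Figure D4:**
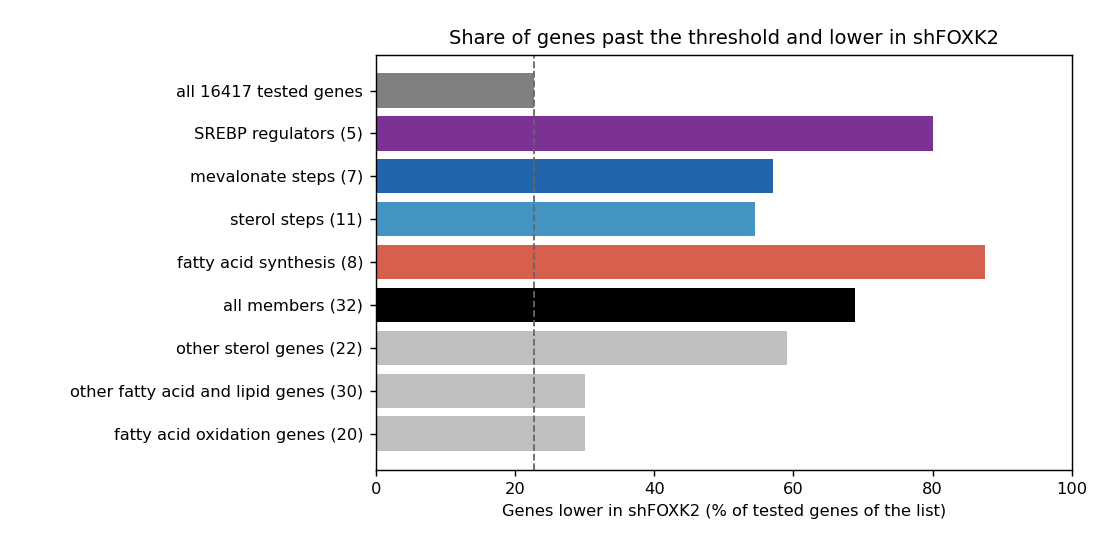
Share of genes that passed the test and were lower in shFOXK2, in percent of the tested genes of each list, with the number of tested genes in brackets; the dashed line is the share over all 16417 tested genes, 22.7%. Bars of the 32 genes and of the 4 plotted roles (the single transport gene STARD4 is not drawn) lie between 54.5% and 87.5%. The bar of the further sterol list (13 of 22 genes lower) lies within the same range, and those of the further lipid list and the oxidation list lie near 30%.

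Among the 19 lower genes with a promoter entry, 13 had a CCAAT box in the window, as did 5 of the 9 genes that did not pass the test. A GC box stood in 18 of the 19 and in 8 of the 9.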

How the data were processed

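Per the labels and the study's methods, polyadenylated RNA was purified with oligo(dT) beads, libraries were made with the NEBNext Ultra II kit, single-end reads were aligned with STAR 2.5.2 to GRCh38 and counted with HTSeq. One table of whole-number counts by gene symbol, not normalized, was deposited for each library. The strand setting and the gene annotation are not given in the sources used here.

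Library totals, from 14284005 to 21950873 counts, limit precision for low genes, and floors cover counting error only. Counts were filtered with filterByExpr, scaled by TMM and tested with the 2-sided quasi-likelihood test of edgeR 4.0.16 (R 4.3.3), with Benjamini-Hochberg adjustment over 16417 genes and a threshold of 0.05. SE is the log2 fold change over the square root of F. With 2 against 2 libraries an exact permutation p cannot go below 0.333, so significance rests on variance shared between genes. In simulated counts for the 16417 genes, with 200 changed, the test recovered 31% of 2-fold and 90% of 4-fold changes, and 6.2% of its calls were false. In the data 7940 genes (48.4%) were called, far more than the 200 changed there, so these rates need not hold for the data.

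Lengths, composition and exon overlaps came from GENCODE v44 (canonical transcripts), which matched 35754 of 56655 symbols and all 32 genes. Of the tested genes, 84.59% had an A content value. The genes named are all 32, FOXK2, and from each further list the 4 called genes with the smallest adjusted p in each direction, others being named as chosen after their values were seen or as a paralog. Some genes that this rule names are not reported here. The genes and lists were chosen with earlier results of these data known. Alternatives were DESeq2 1.42.0 (size factors and Wald test), library size alone, no filter, at least 10 counts in every library, the replicate number as a block, lowess offsets (span 0.2) for A or GC content, glmTreat, and leaving out each library.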

Additional observations from a re-analysis of the deposited data

How the results depend on the processing

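Of the 22 genes called lower, 18 kept the call under every alternative except glmTreat, those that left out a library included, and 19 under those that left out none. CYP51A1, among them, had 9 counts in a shFOXK2 library, so the stricter filter removed it and it was not tested there. HMGCS1, FDPS, STARD4 and FADS1 were the exceptions. The count of lower genes ran from 19 to 24 over all alternatives except glmTreat, which called 9. The count of higher genes was 1 with the A-content offset, the GC-content offset and the A-content offset with the replicate block, and 0 to 1 when a library was left out. The sterol branch had 1 higher gene under the same 3 offsets, and the fatty acid branch 0 to 1 when a library was left out.

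The median of the 32 genes was −0.84 with the A-content offset, also with the replicate block. The sterol median was −1.07 with the GC-content offset and −0.88 to −0.85 with a library left out. The fatty acid median was −1.15 without a filter, −0.70 with the A-content offset (with or without the block), −0.71 with the GC-content offset and −1.17 to −1.06 with a library left out. The difference of the branch medians, 0.31 in the report, was −0.14, −0.35 and −0.14 under the A-content, GC-content and A-content with block fits, and 0.21 to 0.31 with a library left out. The cause was not tested. Among single genes, the sign turned for SQLE, at 0.0018 (A-content offset), EBP, at 0.30, 0.30 and 0.31 (the 3 offsets) and −0.29 to 0.12 with a library left out, ELOVL6, at −0.15 and −0.14 (A-content offset, without and with the block) and −0.25 to 0.79 with a library left out (adjusted p = 0.0315 at 0.79), and INSIG2, at −0.55 to 0.02 with a library left out. The GC-content offset shifted the median gene by 0.11.

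For the further lists, higher sterol genes numbered 2 under the 3 offsets and 1 with at least 10 counts in every library. Their median was −1.05 without a filter, −0.58, −0.83 and −0.60 under the A-content, GC-content and A-content with block fits, and −1.08 to −0.94 with a library left out. Lower fatty acid and lipid genes numbered 14 with the GC-content offset (median −0.57) and 5 to 9 with a library left out, and higher ones 0 with at least 10 counts in every library and 0 to 2 with a library left out. Lower oxidation genes numbered 3 with the GC-content offset and 3 to 7 with a library left out, and higher ones 0 to 3.

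Same-numbered libraries deviated from their group means with a correlation of −0.113, so the numbers were not taken as pairs. When replicate number entered the fit as a block, 20 of the 32 genes were lower, beside 20.2% of all tested genes. A block with crossed numbers, added after seeing the data, called 23 genes lower, 11 sterol genes, and 1 further sterol gene higher. That fit called 23.9% of all tested genes lower and 26.9% higher. The data hold 2 libraries a group, 1 cell line and 1 hairpin line, and a gene that did not pass the test is not shown to be unchanged. Simulated 2-fold changes were often missed, but far fewer genes were changed there than were called here.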

Other observations

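The breakdown of fatty acids, the opposite of the synthesis described above, is carried by 20 further genes, all of which passed the filter. Of these, 6 fell, 3 rose and 11 did not pass the test, with a median log2 fold change of −0.20. The same test called 22.7% of all tested genes lower and 25.7% higher. PPARA, a nuclear receptor that activates oxidation genes, was at 26.4 and 22.3 CPM in shCtrl and 5.2 and 5.11 CPM in shFOXK2 (log2 fold change −2.24, SE 0.30, adjusted p = 6.85e-05). HADHA and HADHB, the 2 subunits of the mitochondrial trifunctional protein, fell by 0.77 (adjusted p = 0.0181) and 1.46 (adjusted p = 0.000303), and HADHA did not pass with the GC-content offset (adjusted p = 0.0577). DECR1, a reductase needed for unsaturated fatty acids, was at 20.5 and 18.9 CPM in shCtrl and 33.7 and 55.3 CPM in shFOXK2 (log2 fold change 1.18, SE 0.29, adjusted p = 0.00472). That call was lost with the offsets for composition, at 0.32 for A content (adjusted p = 0.328) and 0.42 for GC content (adjusted p = 0.221). ETFB, an electron carrier of the pathway, rose by 0.94 (adjusted p = 0.0282) and ACADVL, the very long-chain acyl-CoA dehydrogenase, by 0.64 (adjusted p = 0.0359, or 0.0694 with the replicate block), and the count of rises was 0 without shFOXK2 replicate 2.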
